A study of Homo sapiens with 6 samples.

Results

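The genes described are those of glutathione synthesis and use, the peroxiredoxins and the thioredoxins, with superoxide dismutases, catalase and NQO1. They were matched by symbol, with earlier results of these data known, and 37 of the 16670 genes in the deposited table matched. The RNA came from A549, an established line of human lung adenocarcinoma cells. Senescence was induced in both groups with 1 week of alisertib, which blocks Aurora kinase A, an enzyme of mitosis. The salinomycin group then received 2.5 µM salinomycin, a polyether ionophore that carries alkali metal ions across membranes, for 48 h, and the untreated group received no further drug. Each group had 3 libraries, described as biological replicates, and both groups carry the alisertib exposure. No cells without alisertib were analysed here. Every cell came from the same tumour line, so p-values measure the spread between these cultures.

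Glutathione is a tripeptide of glutamate, cysteine and glycine that cells keep in its reduced form at high levels. Peroxidases use it to remove hydrogen peroxide and lipid peroxides, and transferases attach it to reactive compounds. The thioredoxin system works beside it, with peroxiredoxins taking electrons from thioredoxin and thioredoxin reductase drawing them from NADPH. Many of these genes are targets of the transcription factor NRF2, which is held down by KEAP1, and A549 is known for a KEAP1 mutation that leaves NRF2 active.

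Values are normalised units, that is the deposited values less an added 1, divided by a trimmed-mean scale factor. Deposited totals lay within 0.692% of each other, and estimated reads ranged from 14929443 to 19641149 in salinomycin and from 13539959 to 16457408 in untreated libraries. The epithelial markers KRT8, KRT18, KRT19, EPCAM and CDH1 were present in both groups, with 33824 to 37954 summed units in salinomycin and 152080 to 167705 in untreated libraries, and KRT19 was the only one of the 5 that was higher. Leukocyte, endothelial and erythroid markers each summed, list by list, to at most 15.1 units in any library, and fibroblast markers, mostly COL1A1, to 403 to 438 units in salinomycin and 575 to 806 in untreated libraries, and the alveolar surfactant genes SFTPB and SFTPC had 0 to 2 reads over a group. NKX2-1, a lung epithelial transcription factor gene, had 14.1 to 16.9 units in salinomycin libraries and 0 in untreated libraries. The alveolar marker NAPSA had 27.2 to 46.3 units in salinomycin and 39.5 to 57.5 in untreated libraries, and its groups overlapped. Mitochondrially encoded genes made up 0.289% to 0.351% of units in salinomycin and 3.37% to 3.72% in untreated libraries. The part of these differences in the results below was not tested. In bulk RNA, fewer cells of a type and less RNA per cell cannot be told apart.

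With salinomycin most of these genes fell, while 4 of the 5 glutathione peroxidases and 3 peroxiredoxins rose. A total of 34 of the 37 were tested, having reached a deposited value of 11 in 3 or more libraries, and of these 10 rose and 23 fell at an adjusted p under 0.05 (limma on log2 values, Benjamini-Hochberg adjustment over all 13088 genes tested). Among all tested genes 81.9% passed in either direction, 41.6% rose and 40.2% fell, so that passing the test is no mark of these genes. Their median log2 change was -1.15, against 0.022 over all tested genes. Without GSTA1 and GSTA2, which reached the filter through the untreated libraries only, 21 of 32 fell and the median was -1.01. Scaling by total alone puts all changes higher, with medians of -0.95 for these genes and 0.21 for all tested genes. At least 2-fold falls were found in 18 of the 34, against 18.5% of all tested genes, and at least 2-fold rises in 4, against 16.8%. The 18 include GSTA1 and GSTA2, which could only be called lower. The salinomycin and untreated libraries did not overlap for 33 of the 34, GSTA1 and GSTA2 among them, as for 83.0% of all tested genes. Groups that stand apart are thus no mark of these genes either. Together the 37 genes took 0.701% ± 0.0289 of all units in salinomycin and 1.18% ± 0.0331 in untreated libraries (SD, n = 3 each). Among genes with reads in every library the largest fall was that of GPX2, which encodes an epithelial glutathione peroxidase, at 75.6-fold, and the largest rise was that of GPX3, which encodes the secreted plasma form, at 3.58-fold.

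**Figure D1:**
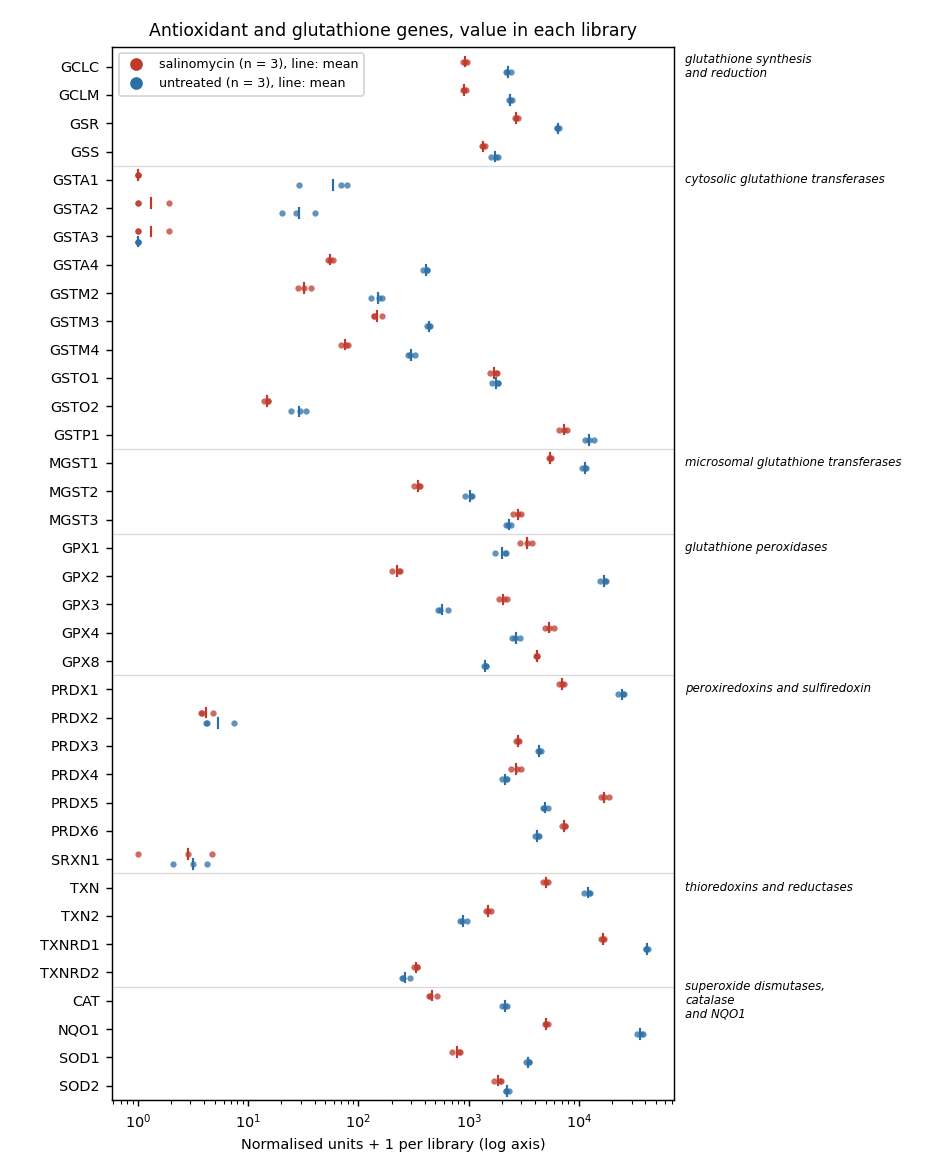
Normalised units plus 1 in each of the 6 libraries (log axis) for the 37 genes, arranged by role, with salinomycin (red) above untreated (blue) and a vertical line at each group mean of 3 libraries. GPX2 lies at 201 to 235 units with salinomycin and at 15644 to 17583 in untreated libraries, and GSTO1 is the tested gene whose groups overlap.

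Promoter sequences were taken from RefSeq (GRCh38.p14), as windows from 250 bases before to 50 bases after an annotated start, and 30 of the 37 genes had one (not MGST2, PRDX6, GSR, PRDX1, TXN2, SOD1 and GSS). The windows of the 3 genes with the largest fitted falls and the 3 with the largest rises are shown, to set the promoters of the extremes beside each other. They are GPX2 (chr14:64942696-64942995, minus strand), GSTA1 (chr6:52803767-52804066, minus strand), GSTA2 (chr6:52763426-52763725, minus strand), GPX3 (chr5:151020341-151020640, plus strand), PRDX5 (chr11:64317871-64318170, plus strand) and GPX8 (chr5:55159921-55160220, plus strand). Each is written 5′ to 3′ along its gene, and capitals mark a match to the core of the antioxidant response element, to which NRF2 binds, searched as TGACNNNGC on both strands.
GPX2: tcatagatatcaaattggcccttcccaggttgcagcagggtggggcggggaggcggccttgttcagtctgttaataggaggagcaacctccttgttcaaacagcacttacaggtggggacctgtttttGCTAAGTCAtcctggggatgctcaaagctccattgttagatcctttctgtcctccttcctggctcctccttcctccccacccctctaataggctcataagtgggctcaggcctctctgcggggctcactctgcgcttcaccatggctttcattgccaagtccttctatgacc
GSTA1: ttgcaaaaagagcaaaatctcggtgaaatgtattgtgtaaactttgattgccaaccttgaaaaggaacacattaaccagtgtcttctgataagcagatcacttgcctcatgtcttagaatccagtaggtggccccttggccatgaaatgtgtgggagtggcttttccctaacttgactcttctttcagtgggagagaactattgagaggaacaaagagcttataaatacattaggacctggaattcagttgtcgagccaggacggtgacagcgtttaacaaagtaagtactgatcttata
GSTA2: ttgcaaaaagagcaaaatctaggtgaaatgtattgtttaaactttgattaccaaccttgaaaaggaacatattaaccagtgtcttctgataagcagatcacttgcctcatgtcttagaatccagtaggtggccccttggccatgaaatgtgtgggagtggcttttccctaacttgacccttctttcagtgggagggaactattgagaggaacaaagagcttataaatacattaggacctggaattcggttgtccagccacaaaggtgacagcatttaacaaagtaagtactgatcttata
GPX3: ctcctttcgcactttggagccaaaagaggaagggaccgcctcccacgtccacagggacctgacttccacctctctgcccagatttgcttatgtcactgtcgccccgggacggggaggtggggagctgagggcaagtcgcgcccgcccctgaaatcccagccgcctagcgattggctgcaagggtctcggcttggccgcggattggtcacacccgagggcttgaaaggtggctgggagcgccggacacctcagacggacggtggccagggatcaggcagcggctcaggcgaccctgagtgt
PRDX5: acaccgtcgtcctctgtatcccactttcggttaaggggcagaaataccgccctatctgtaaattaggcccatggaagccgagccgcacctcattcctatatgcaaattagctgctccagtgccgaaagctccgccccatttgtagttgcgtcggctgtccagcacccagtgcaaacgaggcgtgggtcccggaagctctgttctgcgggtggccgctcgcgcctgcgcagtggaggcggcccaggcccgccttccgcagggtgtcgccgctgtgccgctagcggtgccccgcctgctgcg
GPX8: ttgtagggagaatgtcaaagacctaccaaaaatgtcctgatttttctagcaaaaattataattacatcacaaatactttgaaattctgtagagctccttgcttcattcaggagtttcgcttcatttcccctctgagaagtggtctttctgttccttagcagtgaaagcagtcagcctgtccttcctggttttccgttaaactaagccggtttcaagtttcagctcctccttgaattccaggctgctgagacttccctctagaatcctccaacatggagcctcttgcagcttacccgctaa
The GPX2 window holds 1 match, on the reverse strand, and the other 5 windows hold none. GSTA1 and GSTA2 lie in tandem in the alpha class cluster, and their windows are identical at 288 of 300 positions when set side by side without gaps. Over all windows 7 of 30 genes hold a match, namely 6 of the 18 that fell, 0 of the 8 that rose and GSTO1, which did not pass. The 18 include GSTA1 and GSTA2, which could only be called lower and hold no match. Of all genes with a window 16.1% hold a match, and of those tested here 19.5%. A match is a run of letters and not a shown binding site. Bases outside the windows were not searched, so a gene without a match here may hold one further away. The matches are given with 10 bases on each side, as the gene reads 5′ to 3′, because they differ in the free bases and in what flanks them.
GCLM: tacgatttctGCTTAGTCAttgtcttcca
GPX2: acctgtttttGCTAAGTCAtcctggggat
GSTA4: ccgggaccgcTGACCTGGCgctttgtgcg
GSTO1, first copy: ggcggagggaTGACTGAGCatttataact
GSTO1, next copy: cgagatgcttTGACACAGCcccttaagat
GSTP1: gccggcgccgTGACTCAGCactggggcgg
MGST1: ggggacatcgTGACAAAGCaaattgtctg
TXNRD1 upstream window, first copy: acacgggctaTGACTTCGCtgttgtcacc
TXNRD1 upstream window, next copy: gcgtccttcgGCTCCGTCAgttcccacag
TXNRD1 downstream window: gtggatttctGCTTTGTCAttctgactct
In GPX2 the first base of the match lies at -122 and in GCLM at -34, counting the annotated start as 0. TXNRD1, which has 2 windows because RefSeq gives it separate starts, holds 2 matches in the upstream and 1 in the downstream window.

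The 4 genes of glutathione synthesis and reduction all fell, against 40.2% of all tested genes. GCLC encodes the catalytic subunit of glutamate-cysteine ligase, the rate-limiting enzyme of glutathione synthesis, and had 961, 927 and 881 units in the salinomycin libraries against 2189, 2418 and 2225 in the untreated libraries. GCLM encodes its modifier subunit and had 949, 902 and 879 units with salinomycin against 2300, 2466 and 2365 untreated. The libraries of the groups lay far apart for both subunits, and the falls were of like size, 2.47-fold for GCLC (log2 change -1.30, SE 0.058; adjusted p = 1.06e-09) and 2.61-fold for GCLM (log2 change -1.38, SE 0.054; adjusted p = 3.11e-10). GSR encodes glutathione reductase, which returns oxidised glutathione to its reduced form, and had 2629, 2774 and 2661 units with salinomycin against 6371, 6629 and 6256 untreated, a 2.39-fold fall. GSS, whose product adds glycine in the final step, had 1317, 1404 and 1349 units with salinomycin against 1828, 1750 and 1594 untreated. Its fall of 0.34 on the log2 scale (95% interval -0.476 to -0.211; adjusted p = 0.000212) was the smallest of the 4, and in the authors' deposited table its adjusted p was 0.0633.

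Of 9 cytosolic glutathione transferases tested 8 fell and none rose, against 40.2% and 41.6% of all tested genes. GSTA1 and GSTA2 reached the filter in untreated libraries only, so they could only be called lower, and without them 6 of 7 fell. The alpha class conjugates electrophiles and lipid peroxidation products. GSTA1 had 0 units in all 3 salinomycin libraries against 69.2, 77.7 and 27.7 in the untreated libraries, and was at least 70.0-fold lower, with 0 reads set at a floor of 3 over the salinomycin group, while the 95% exact interval of the ratio, which also counts the error of the untreated reads, begins at 56.3. GSTA2 had 0.926, 0 and 0 units with salinomycin, a single read, against 25.9, 39.4 and 19.2 untreated, and after allowing for depth the ratio of untreated to salinomycin reads was 99.7 (95% exact interval from counting, 17.4 to 3990). These intervals and floors cover counting error only and rest on estimated reads. GSTA1 shares 28.9% and GSTA2 18.4% of their 50-base stretches with other GENCODE transcripts, chiefly each other's, so reads may have been split or lost between them. GSTA4, whose product acts on 4-hydroxynonenal, a product of lipid peroxidation, had 54.6, 51.6 and 57.3 units with salinomycin against 417, 415 and 384 untreated. It shares no such stretch, and its 7.33-fold fall (log2 change -2.87, SE 0.101; adjusted p = 1.37e-10) rests on the most reads of the class. GSTA3 had 1 read in all and was not tested.

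The 3 mu class genes, which encode transferases of epoxides and quinones, fell together. GSTM2 had 36.1, 30.9 and 27.2 units with salinomycin against 154, 162 and 130 untreated, a 4.62-fold fall. GSTM4 had 79.6, 68.4 and 77.0 units against 293, 326 and 282 untreated, a 3.96-fold fall. GSTM3 had 137, 163 and 136 units against 436, 447 and 414 untreated, a 2.97-fold fall. In each of these genes every salinomycin library lay under every untreated one, and in 83.0% of all tested genes the groups did not overlap. GSTM2 and GSTM4 share 37.9% and 16.9% of their 50-base stretches with other transcripts of the class, whereas GSTM3 shares 1.39%. GSTP1, the pi class enzyme and the most abundant cytosolic transferase per kb of exon in both groups, had 6634, 7383 and 7771 units with salinomycin against 13677, 11283 and 12345 untreated, a 1.71-fold fall (adjusted p = 1.27e-06). Of the omega class, which reduces glutathione-bound proteins and small molecules, GSTO1 had 1560, 1762 and 1794 units with salinomycin against 1853, 1852 and 1638 untreated. The GSTO1 groups overlapped and it did not pass, with a log2 change of -0.06 (95% interval -0.214 to 0.088), or 0.13 with library-size scaling. GSTO2 had 13.0, 14.1 and 14.1 units with salinomycin against 32.4, 28.7 and 23.5 untreated, a 1.97-fold fall (adjusted p = 0.00165), and in the authors' deposited table its adjusted p was 0.0543. Per kb, GSTP1 made up 77.8% ± 0.332 of the summed cytosolic transferase level with salinomycin and 81.4% ± 2.04 untreated, and GSTO1 20.7% ± 0.259 with salinomycin and 13.2% ± 1.25 untreated (SD, n = 3 each).

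Microsomal glutathione transferases are membrane enzymes of a separate fold, and the 3 genes moved in both directions. MGST1, found in the ER and mitochondrial outer membrane, had 5389, 5555 and 5468 units with salinomycin against 11527, 11389 and 10760 untreated, a 2.05-fold fall. MGST2, which can also make leukotriene C4, had 320, 364 and 352 units against 1043, 1079 and 932 untreated, a 2.94-fold fall, with 7.92% of its exonic bases on the opposite strand of MAML3. MGST3 had 2515, 2811 and 2994 units with salinomycin against 2282, 2431 and 2193 untreated, a small rise (log2 change 0.27, 95% interval 0.119 to 0.413; adjusted p = 0.00297). The groups of all 3 genes stood apart, as did those of 83.0% of all tested genes, and those of MGST3 by little. As a share of the family per kb, MGST3 stood at 28.1% ± 1.51 with salinomycin and 13.0% ± 0.381 untreated (SD, n = 3 each).

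The glutathione peroxidases split, with GPX2 lower and the other 4 higher, against 40.2% and 41.6% of all tested genes. GPX2 encodes a selenium-dependent peroxidase of gastrointestinal and airway epithelium. It had 231, 235 and 201 units with salinomycin against 17583, 17358 and 15644 untreated (log2 change -6.24, SE 0.070; adjusted p = 4.9e-14). GPX1, the selenium-dependent peroxidase of cytosol and mitochondria, had 2916, 3406 and 3778 units with salinomycin against 2171, 1736 and 2115 untreated, a 1.68-fold rise (adjusted p = 1.93e-05). It shares 15.6% of its 50-base stretches with pseudogenes. GPX3 had 1865, 2097 and 2205 units with salinomycin against 644, 552 and 527 untreated (log2 change 1.84, SE 0.084; adjusted p = 1.19e-09). GPX4, which reduces peroxides within membrane lipids and guards against ferroptosis, had 4923, 5325 and 5897 units with salinomycin against 2903, 2470 and 2647 untreated, a 2.01-fold rise. GPX8, an ER membrane member with its active site in the lumen and cysteine in place of selenocysteine, had 4106, 4170 and 4167 units with salinomycin against 1437, 1442 and 1364 untreated, a 2.93-fold rise (adjusted p = 4.26e-11). Every salinomycin library lay above every untreated one for these 4 genes, and in 83.0% of all tested genes the groups did not overlap.

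The make-up of the family turned over with these changes, and such shares do not depend on how the libraries were scaled. GPX2 was 2.17% ± 0.338 of the summed peroxidase level per kb with salinomycin and 77.4% ± 1.86 untreated (SD, n = 3 each). GPX4 was 38.7% ± 0.496 with salinomycin and 9.12% ± 0.626 untreated, and GPX1 34.1% ± 1.48 with salinomycin and 9.68% ± 1.23 untreated. GPX8 stood at 15.6% ± 1.24 and GPX3 at 9.43% ± 0.134 with salinomycin, against 2.52% ± 0.0739 and 1.25% ± 0.0750 untreated. The summed level of the 5 genes was 6891 ± 595 units per kb with salinomycin and 14524 ± 758 untreated. Ranked per kb among the 36 genes with a single exon length, GPX2 was 22nd with salinomycin and 2nd untreated.

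**Figure D2:**
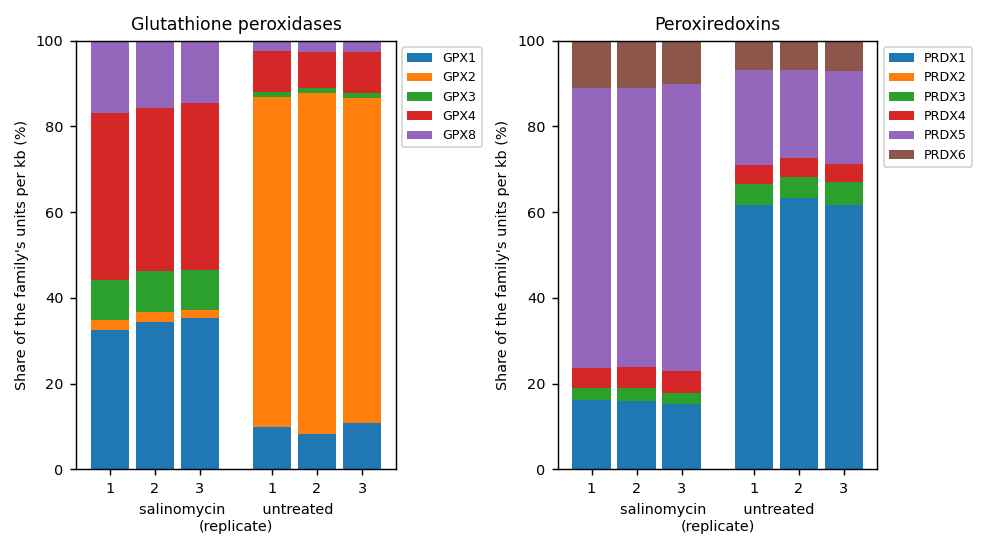
Share of each gene in the summed level per kb of exon of the glutathione peroxidases (left) and the peroxiredoxins (right), in percent, with 1 bar per library, salinomycin left of untreated. GPX2 fills 75.9% to 79.5% of the untreated bars and at most 2.45% of the salinomycin bars, and PRDX5 takes the largest share of peroxiredoxins with salinomycin where PRDX1 does in untreated libraries.

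Peroxiredoxins also moved in both directions, with 3 of 5 tested genes higher and 2 lower, against 41.6% and 40.2% of all tested genes. PRDX1, an abundant cytosolic form, had 6622, 7002 and 7268 units with salinomycin against 25021, 25360 and 22653 untreated, a 3.49-fold fall (log2 change -1.80, SE 0.059, adjusted p = 7.53e-11). In GENCODE 24.9% of its exonic bases lie opposite exons of MMACHC, and whether strand was used in counting was not given in the sources used here. PRDX5, an atypical form found in mitochondria, peroxisomes and cytosol, had 15689, 16690 and 18695 units with salinomycin against 5278, 4811 and 4673 untreated, a 3.46-fold rise (log2 change 1.79, SE 0.069; adjusted p = 3.04e-10). These changes were nearly equal in size and opposite in sign. The summed level of the 6 peroxiredoxin genes was 28973 ± 2199 units per kb with salinomycin and 25679 ± 1380 untreated, and within it PRDX5 stood at 65.8% ± 0.986 with salinomycin and 21.5% ± 0.870 untreated, and PRDX1 at 15.8% ± 0.487 with salinomycin and 62.3% ± 0.957 untreated (SD, n = 3 each). The sum takes the low PRDX2 value as it stands, and whether that value reflects counting was not tested. PRDX6, whose product reduces phospholipid peroxides with glutathione, had 6989, 7431 and 7534 units with salinomycin against 4310, 4246 and 4007 untreated, a 1.75-fold rise. PRDX4, the form of the ER lumen, had 2414, 2745 and 2976 units against 2192, 2223 and 1985 untreated, a 1.27-fold rise (95% interval 1.13 to 1.42; adjusted p = 0.00112). PRDX3, the form confined to mitochondria, had 2671, 2825 and 2863 units with salinomycin against 4531, 4363 and 4256 untreated, a 1.57-fold fall. The salinomycin and untreated libraries did not overlap for these genes, as for 83.0% of all tested genes.

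A pair of genes of this role was not tested for low values. PRDX2, a cytosolic peroxiredoxin, had 2.78 to 3.75 units with salinomycin and 3.19 to 6.40 untreated, from 12 and 11 reads. SRXN1, which encodes the sulfiredoxin that repairs overoxidised peroxiredoxins, had 0 to 3.75 units with salinomycin and 1.06 to 3.24 untreated. In GENCODE release 29, 84.95% of the exonic bases of SRXN1 lie on the same strand within exons of another protein-coding gene, AL121758.1, which was not analysed here. PRDX2 shares 14.1% of its exonic bases with an antisense gene on the opposite strand, and 4.37% of its 50-base stretches with pseudogenes. Whether the low values reflect the transcripts or the way reads were counted was not tested, and neither gene is read here as low in these cells.

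In the thioredoxin system the cytosolic pair fell and the mitochondrial pair rose. TXN, the cytosolic thioredoxin, had 4760, 4979 and 5199 units with salinomycin against 12274, 12664 and 11118 untreated, a 2.41-fold fall (log2 change -1.27, SE 0.059). TXNRD1, its reductase and a selenoprotein, had 15916, 16461 and 16710 units with salinomycin against 40604, 40907 and 42614 untreated, a 2.53-fold fall (log2 change -1.34, SE 0.051; adjusted p = 2.84e-10). TXN2, the mitochondrial thioredoxin, had 1423, 1509 and 1587 units with salinomycin against 958, 871 and 832 untreated, a 1.70-fold rise (log2 change 0.76, SE 0.066). TXNRD2, the mitochondrial reductase, had 321, 338 and 338 units against 291, 254 and 248 untreated, a 1.26-fold rise (95% interval 1.10 to 1.44; adjusted p = 0.00351). All 4 genes had groups that stood apart, as had 83.0% of all tested genes. The mitochondrial genes stayed minor per kb, TXN2 at 14.4% ± 0.133 of the thioredoxins with salinomycin and 3.95% ± 0.241 untreated, and TXNRD2 at 1.59% to 1.62% of the reductases in salinomycin and 0.463% to 0.570% in untreated libraries (SD, n = 3 each, for TXN2).

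Superoxide dismutase, catalase and NQO1 genes fell, as did 40.2% of all tested genes. SOD1, the copper-zinc enzyme of the cytosol, had 708, 814 and 834 units with salinomycin against 3532, 3488 and 3338 untreated, a fall of over 4-fold (log2 change -2.14, SE 0.065; adjusted p = 4.44e-11). CAT, which encodes the peroxisomal catalase, had 443, 516 and 438 units with salinomycin against 2127, 2244 and 2000 untreated, a 4.56-fold fall (adjusted p = 9.3e-11). NQO1, a quinone reductase, had 4926, 5042 and 5196 units with salinomycin against 36476, 37715 and 33924 untreated, a 7.12-fold fall (log2 change -2.83, SE 0.054, adjusted p = 1.5e-12). In NQO1 17.7% of the exonic bases lie opposite an antisense gene. These 3 falls were each over 4-fold, in contrast with SOD2. SOD2, the manganese enzyme of mitochondria, had 1960, 1915 and 1692 units with salinomycin against 2184, 2158 and 2308 untreated, a log2 change of -0.26 (95% interval -0.395 to -0.122; adjusted p = 0.0022). Without a composition factor in the scaling it did not pass (-0.07; adjusted p = 0.345), nor did it in the authors' deposited table (adjusted p = 0.499). GENCODE release 29 lists 2 overlapping genes named SOD2, so no length or position is given for it.

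**Figure D3:**
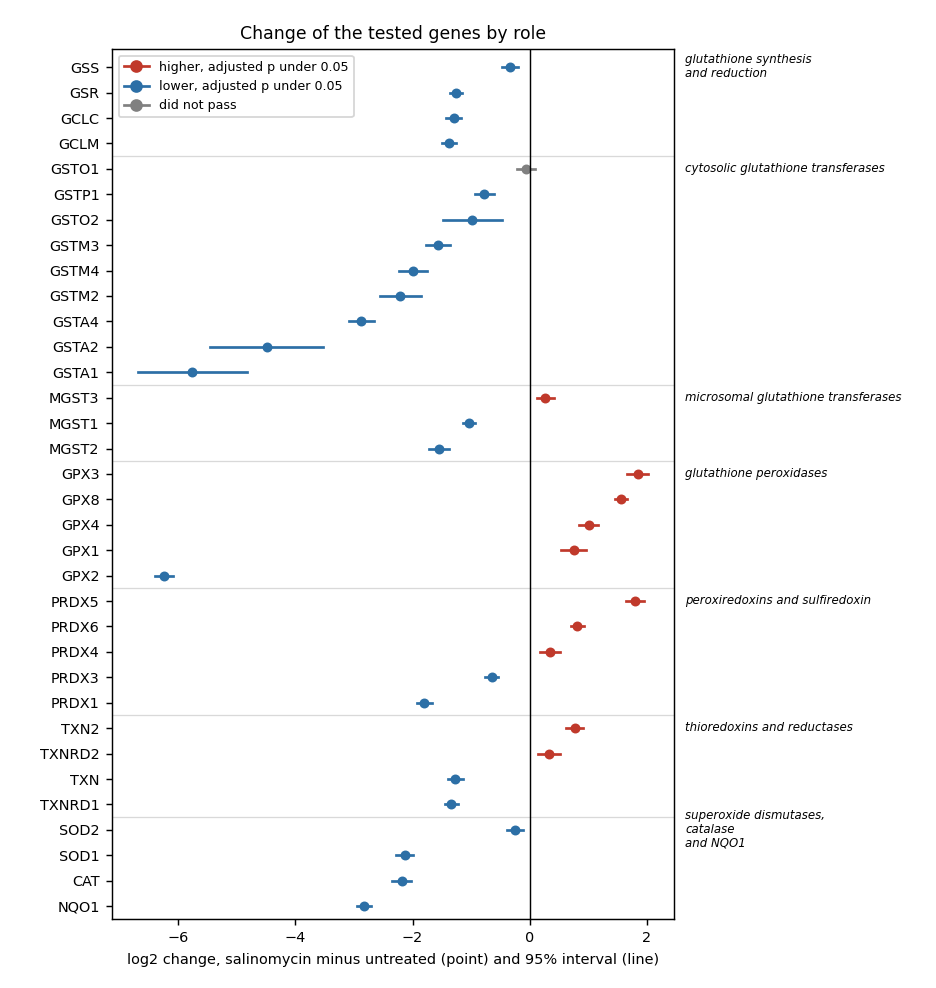
The log2 change of the 34 tested genes, salinomycin minus untreated, with 95% intervals from limma (lines), arranged by role and coloured by direction at an adjusted p under 0.05. The changes run from -6.24 for GPX2 to 1.84 for GPX3, the interval of GSTO1 spans 0, and the points of GSTA1 and GSTA2, with at most 1 salinomycin read, depend on the pseudocount.

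Grouped by where their products act, 2 of the 3 listed members with an ER-luminal active site were in the table, PRDX4 and GPX8, and both rose. Of 5 members listed for a mitochondrial product 3 rose (PRDX5, TXN2 and TXNRD2) and 2 fell (PRDX3 and SOD2), or 3 and 1 with library-size scaling. That list is not complete, as it leaves out GPX1, which rose, and MGST1, which fell, both placed partly in mitochondria above. Of 6 selenoprotein members 4 rose (GPX1, GPX3, GPX4 and TXNRD2) and 2 fell (GPX2 and TXNRD1), with a median log2 change of 0.54. These counts stand beside 41.6% higher and 40.2% lower over all tested genes, and over 6 genes they set the selenoproteins apart from no other group. A list of 9 genes of selenium supply and of making and inserting selenocysteine held 6 that rose and 2 that fell (1 with library-size scaling), with a median log2 change of 0.71 against 0.022 over all tested genes. It includes LRP8, a receptor for selenoprotein P, and SCLY, which takes selenocysteine apart, and both are among the 6. SEPSECS and PSTK, which convert serine to selenocysteine on its tRNA, rose by 1.82 and 1.58 on the log2 scale. SCLY, the selenocysteine lyase gene, had 47.3 ± 8.08 units with salinomycin and 17.5 ± 3.63 untreated (SD, n = 3 each). The members that fell were SECISBP2, which encodes a factor that binds selenocysteine insertion elements, at -0.31 on the log2 scale, and SEPHS1, at -1.04, while SEPHS2, whose product makes the selenium donor, rose by 0.96.

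A list of 11 genes held NFE2L2, the gene of NRF2 itself, its relatives NFE2L1 and NFE2L3, and 8 partners or regulators. Of the 11, 7 rose and 3 fell, against 41.6% and 40.2% of all tested genes, and the median log2 change was 0.52. BACH2 is among the 7 and could only be called higher. Leaving BACH2 out kept 10 genes, 6 called higher and 3 called lower, and brought the median log2 change to 0.43. NFE2L2 had 1879 ± 40.8 units with salinomycin and 2399 ± 79.3 untreated (SD, n = 3 each), a fall of 0.35 on the log2 scale (adjusted p = 2.95e-05). KEAP1, whose product directs NRF2 to degradation, had 1337 ± 101 units with salinomycin and 900 ± 63.8 untreated, a rise of 0.57 (adjusted p = 1.17e-05). CUL3, the ubiquitin ligase scaffold that acts with KEAP1 in that step, had 1317 ± 2.67 units with salinomycin and 1972 ± 64.2 untreated, a log2 change of -0.58 (adjusted p = 3.28e-07). SQSTM1, whose product p62 binds KEAP1 and can free NRF2, had 41666 ± 1556 units with salinomycin and 18907 ± 865 untreated, a log2 change of 1.14 (adjusted p = 2.61e-09). BACH1, which encodes a repressor of NRF2 target genes, had 462 ± 39.0 units with salinomycin and 493 ± 33.6 untreated and did not pass (log2 change -0.10). BACH2, a related repressor gene, had 57.3 ± 0.106 units with salinomycin and 5.35 ± 1.03 untreated (log2 change 3.21) and reached the filter in salinomycin libraries only, and MAFF, a small MAF partner gene, had 894 ± 39.1 units with salinomycin and 120 ± 7.03 untreated (log2 change 2.89). NFE2L3 fell by 1.92, and NFE2L1 rose by 1.29. These are transcript levels, and NRF2 protein was not measured.

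Genes of cystine supply and glutathione turnover were mixed, with 5 of 17 higher and 8 lower, against 41.6% and 40.2% of all tested genes, and a median of -0.17. Without GGT5, which could only be called lower, 5 of 16 were higher and 7 lower, with a median of -0.13. In all 76.5% of the list passed, no more than the 81.9% of all tested genes. SLC7A11, the cystine transporter subunit that feeds glutathione synthesis, had 1307 ± 92.1 units with salinomycin and 4089 ± 349 untreated (SD, n = 3 each), a log2 change of -1.64. CHAC1, which encodes an enzyme that degrades glutathione, had 749 ± 72.9 units with salinomycin and 83.6 ± 8.40 untreated, a log2 change of 3.15 (adjusted p = 8.3e-11). ABCC3, one of the transporters that export glutathione conjugates, fell by 2.78 on the log2 scale. GGT5, a gamma-glutamyltransferase gene, had 0.309 units with salinomycin, from 1 read, and 23.2 untreated, from 60 reads, and reached the filter in untreated libraries only. CBS, CHAC2, GGT1 and SLC25A40 did not pass.

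Of 19 glutaredoxin and thioredoxin relatives 7 rose and 10 fell, against 41.6% and 40.2% of all tested genes, with a median of -0.33. TXNIP, which encodes an inhibitor of thioredoxin, had 301 ± 4.89 units with salinomycin and 567 ± 80.9 untreated (SD, n = 3 each), a log2 change of -0.90, in the same direction as TXN. GLRX, the cytosolic glutaredoxin gene, fell by 0.92. TXNL4B, a thioredoxin-like gene of the splicing machinery, rose by 2.37, and MSRB2 and NXN, a mitochondrial methionine sulfoxide reductase and a nucleoredoxin gene, fell by 1.84 and 1.51. Of 12 tested transferase and peroxidase relatives 5 rose and 6 fell, with GSTK1, the kappa class transferase of mitochondria and peroxisomes, at 991 ± 40.8 units with salinomycin and 2557 ± 155 untreated. CLIC3 and ALOX5AP, structural relatives of the transferases, rose by 1.68 and 1.11 on the log2 scale. In NADPH supply, on which both reductases depend, 3 of 16 rose (5 with library-size scaling) and 9 fell, beside the same shares of all tested genes, with a median of -0.77. TKT and TALDO1 of the pentose phosphate pathway fell by 1.83 and 1.73, and NADK2, a mitochondrial NAD kinase gene, rose by 2.02. Over the 84 tested genes of these 6 lists, BACH2 and GGT5 included, 33 rose and 38 fell, with a median of -0.09, against 0.022 over all tested genes.

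**Figure D4:**
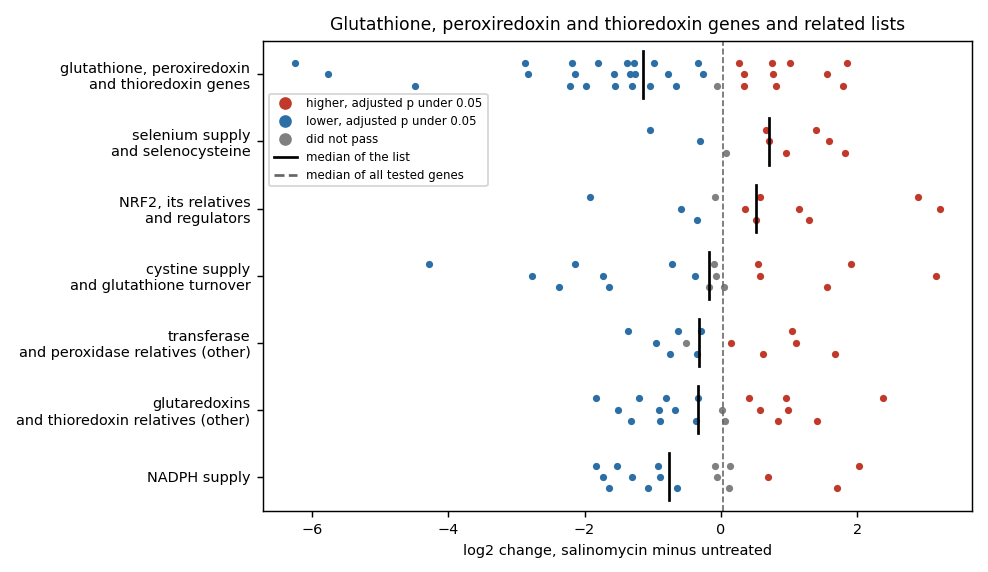
The log2 change, salinomycin minus untreated, of each tested gene (points) in the described genes and in 6 related lists, with the median of each list (black line) and that of all 13088 tested genes (dashed line, 0.022). The described genes have a median of -1.15, and the list medians run from 0.71 for selenium supply and selenocysteine to -0.77 for NADPH supply.

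In the authors' deposited table of gene sets, 6 sets had glutathione in their name, and their normalised enrichment scores were all negative, from -1.18 to -1.93. An adjusted p under 0.05 in the authors' deposited table was held by 2 of these, the glutathione transferase activity set (-1.93; adjusted p = 0.0138) and a glutathione metabolism set (-1.71; adjusted p = 0.0303). The glutathione peroxidase activity set stood at -1.18 in the authors' deposited table (adjusted p = 0.467). Among 10 sets with NRF2 or its gene in the name, the authors' deposited table had 5 lower, 1 higher and 4 at an adjusted p of 0.05 or more. In the authors' deposited table the higher set, nrf2_01, scored 2.08 and the lowest, nfe2l2.v2, -2.58. The 10 were gathered by name alone, ibrahim_nrf2_down among them, and differ in kind, so the count is not one of NRF2 targets. These sets share genes with each other and with the genes above, and they come from the same libraries.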

How the data were processed

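Gene-level values of 6 libraries were compared. GRCh38 is the build named, with no role given, per the submitters' processing notes. Aligner, counter and annotation are not given in the sources used here. In the deposited table, signal values were rescaled and rounded to whole numbers, with 1 in place of 0. Per the file headers, the authors also deposited log10 means, log2 fold changes, linear fold ratios, a test score and p-values per gene, and an enrichment score with p-values per gene set.

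Values less the added 1 were scaled by TMM factors (30% trim of log ratios, 5% of levels). Genes reaching a deposited 11 in at least 3 libraries were fitted as log2(value + 1) with limma 3.58.1 in R 4.3.3, with its trend option and p adjusted by Benjamini-Hochberg, called at 0.05, for salinomycin against untreated. Fold changes are on that scale and understate changes of low genes. Reads were estimated from the rounding steps, with scale factors of 0.831 to 1.2035. The fit was tested on simulated data with few changed genes, as many raised as lowered. That simulation cannot speak to the scaling here, where 81.9% of tested genes passed. Levels between genes were compared per kb of exon from GENCODE release 29, to which 36 genes matched singly. The length is that of all annotated exons of a gene joined, whichever transcripts the cells make, so levels and shares between genes are rough. Members, lists and alternatives were chosen with earlier results of these data known. Every matched gene was accounted for, with values per library at 1000 units or more or at a log2 change of 1 or more, and from each list the 3 largest changes and 7 fixed genes were named. LRP8, SECISBP2, SEPHS1, SEPHS2, CUL3, SQSTM1, NFE2L1 and genes that did not pass were named after their values were seen. The alternatives changed the scaling, filter, pseudocount or test, added the replicate number as a block, or left out each library in turn. Protein sequences were not used here.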

Additional observations from a re-analysis of the deposited data

How the results depend on the processing

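Among the 34 tested genes, 534 of 535 values under alternative settings kept their side of the threshold, and the exception was SOD2 with scaling by library size alone (-0.07). Genes that passed in the main fit kept their direction in every setting. Across the alternatives 10 genes rose in each, and between 20 and 23 fell, with 20 under a stricter filter (deposited value of 31 or more) that tested 31 genes and 21 when an untreated library was left out, which left GSTA1 and GSTA2 untested. Their median log2 change ran from -1.23 with upper-quartile scaling to -0.95 with library size alone and without untreated replicate 1, and that of all tested genes from -0.06 to 0.21. The authors' log2 fold changes lay a median of 0.196 above those given here over all tested genes. Scaling by library size alone gave 6461 higher and 4353 lower genes, against 5451 and 5266, and upper-quartile scaling 5015 and 5720. With library size alone, NADPH supply had 5 higher genes, the selenium and selenocysteine list 1 lower and the members with a mitochondrial product 1 lower, and no other list count moved by over 1.5 times under any alternative. GSTO1, which did not pass under any setting, changed sign between them. With the replicate number as a block 5325 genes rose and 5130 fell, and the described genes gave the same counts, 10 and 23. Same-numbered libraries did not deviate together (r of -0.17, -0.01 and -0.03 across genes), so the numbers are not taken to pair the cultures. Reads were few for GSTA1, GSTA2, GSTA3, GSTO2, PRDX2 and SRXN1, with at most 158 over a group. For PRDX2 and SRXN1, whether this reflects the transcripts or the counting was not tested.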
